A study of Mus musculus with 33 samples.

Results

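Of 30815 genomic regions counted in a ChIP-seq study of direct cardiac reprogramming in mouse cells, 631 (2.05%) were bound by Mef2c and by Tbx5, but not by Gata4, in cells that received all 3 factors. The members were chosen from the values of those cells. Counts were summed over the libraries of a ChIP group, scaled to CPM (the share of the summed total, multiplied up to a common library size) and set against the 9 summed input libraries as a log2 ratio with 5 CPM added to both sides. A region was taken as bound at a log2 enrichment of 0.585 or more, which is 1.5-fold. The members therefore had to pass for Mef2c and Tbx5 and to miss for Gata4, and the enrichments of the 3 factors in these cells are given below as a description with no test.

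Gata4 is a zinc-finger transcription factor that recognises GATA sequences, Mef2c is a MADS-box factor that binds AT-rich sites, and Tbx5 is a T-box factor. All of them act in the developing heart, and their joint expression moves fibroblasts toward a cardiomyocyte-like state. They can occupy the same regulatory elements or separate ones, so a region bound by one pair without the last factor is one of the combinations that a study of their joint binding can separate.

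The cells were a line of neonatal mouse cardiac fibroblasts of the Cd-1 strain, immortalized with large T antigen and carrying the alpha-MHC-GFP reporter. They were infected with retroviruses for Gata4, Mef2c and Tbx5 at once ("together" below) or with the virus of 1 factor ("alone"). All cultures were kept with sb431542, an inhibitor of TGF-beta signalling, and the Wnt inhibitor xav939, and they were collected at day 2 without sorting, so cells that took up no virus or only some of the viruses were included. There were 6, 4 and 4 ChIP libraries for Gata4, Mef2c and Tbx5 together and 6 inputs of these cells, and 4, 3 and 3 ChIP libraries of the factors alone with 1 input for each culture. The labels speak of biological replicates, but all came from 1 cell line, so p-values measure the spread between cultures of that line. Mef2c was precipitated with a rabbit monoclonal antibody and the other factors with goat antibodies, so levels of different factors also reflect different antibodies.

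Mef2c libraries held 383071 to 2377616 counts over the regions together and 918300 to 968131 alone. Tbx5 libraries held 580261 to 1431928 together and 334761 to 485430 alone, Gata4 libraries 352015 to 941173 together and 222761 to 591033 alone, and the inputs 97474 to 301678. Libraries 1 and 6 of Gata4 together were not separated from sampling noise by a chi-square test over regions (1.01 per degree of freedom, against 1.34 to 2.99 for other pairs of the group) and were counted as 1 sample, which left 5 samples. Inputs 1 and 3 and inputs 2, 4 and 5 of those cells were likewise not separated, which left 3 samples. The library labelled Gata4 alone number 4 had a median of 35.9 CPM over the members, against 10.2 to 15.4 CPM in the other Gata4 alone libraries and 30.2 to 33.7 CPM in the inputs of the cells with all 3 factors. It was left out of the summed enrichment of Gata4 alone and kept in the tests, whose counts are also given without it. CPM are shares of the counts over the regions, so a region that is not bound lies below its input level in a library with strong binding elsewhere: the median log2 enrichment over all 30815 regions was -0.38, -0.91 and -0.67 for Gata4, Mef2c and Tbx5 together and -0.59, -1.40 and -0.86 alone.

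Over the 631 members, the median level was 85.3 ± 8.58 CPM for Mef2c together (SD, n = 4) and 71.1 ± 12.7 CPM for Tbx5 together (n = 4). Both lay above the inputs of the same cells, at 31.3 ± 1.02 CPM (n = 3), whereas Gata4 together was level with them at 31.8 ± 3.17 CPM (n = 5). The medians over all regions were 15.2 CPM for Mef2c, 16.5 CPM for Tbx5 and 21.9 CPM for Gata4 together, against 30.1 CPM in these inputs. Gata4 together at the members was thus level with input but above the median region of its own libraries. Alone, the median over the members was 52.3 ± 6.48 CPM for Tbx5 (n = 3) and 33.9 ± 1.23 CPM for Mef2c (n = 3), beside 31.3 ± 0.590 CPM in the inputs of the single-factor cultures (n = 3). Gata4 alone averaged 18.5 ± 11.8 CPM (n = 4), or 12.7 ± 2.63 CPM without number 4. Over all regions, the medians alone were 15.3 CPM for Tbx5, 8.49 CPM for Mef2c and 21.7 CPM for Gata4 (18.4 CPM without number 4). The members held 6.31 ± 0.405% of all Mef2c counts and 5.01 ± 0.785% of all Tbx5 counts in the cells with all 3 factors, against 2.18 ± 0.0339% of their input counts. In the plot of levels by library, the quartiles of Mef2c alone reached from 10.6 to 85.2 CPM, so many members lay well above the input level in that setting and many well below it.

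**Figure D1:**
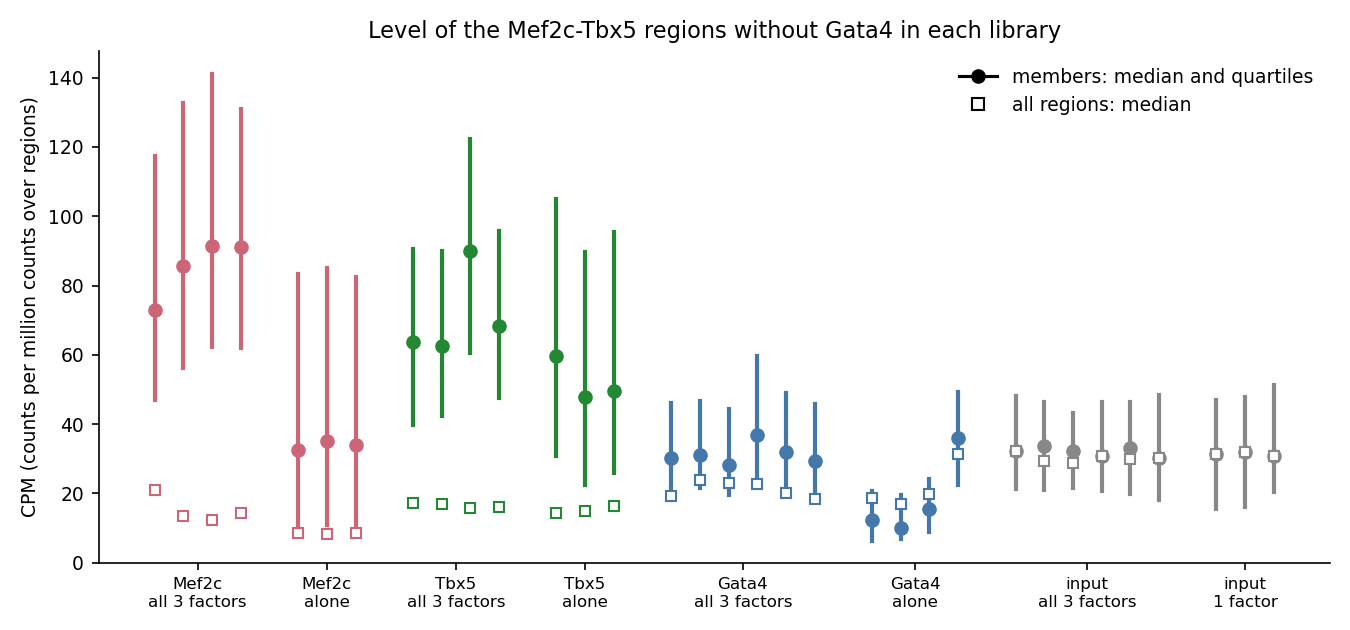
Median level (filled circle) and quartiles (line) over the 631 member regions in each of the 33 libraries, in CPM, with the median over all 30815 regions as an open square; colours mark the ChIP, and libraries later counted as 1 sample are drawn separately. Mef2c and Tbx5 together sit at 62.5 CPM or more in every library, Gata4 together between 28.3 and 36.9 CPM, and 1 of the 4 Gata4 alone libraries stands apart at 35.9 CPM.

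Member strength varied widely. In the cells with all 3 factors, the log2 enrichment of Mef2c had a median of 1.19, with quartiles of 0.85 and 1.71 and a highest value of 3.21. That of Tbx5 had a median of 0.92, with quartiles of 0.75 and 1.24 and a highest value of 2.50. At 419 members the Mef2c value was the higher of the pair. Across the 631 members, the enrichments of the same factor together and alone, which share their inputs, had r = 0.57 (Pearson) and rho = 0.52 (Spearman) for Mef2c and r = 0.46 and rho = 0.42 for Tbx5. The values together have a floor at the threshold, which bears on these correlations.

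Many members lay close to a threshold. Within 0.1 of it on the log2 scale there were 103 members for Tbx5, 67 for Mef2c and 67 for Gata4, and outside it, with the other 2 criteria met, were 141, 51 and 69 regions. For Gata4, chr5:47714223-47714654 at 0.58487 was the nearest member inside, and chr10:42968292-42968565 at 0.58549 the nearest region outside. For Mef2c the nearest pair was chr6:29381581-29381907 at 0.5859 inside and chr16:38713430-38713643 at 0.5845 outside, and for Tbx5 it was chr11:87994651-87995065 at 0.5871 inside and chr5:96592860-96593062 at 0.5845 outside. Sample by sample, 394 members reached the threshold in all 4 Mef2c samples, 283 in all 4 Tbx5 samples, and 389 stayed under it in all 5 Gata4 samples. All 13 samples lay on the side of the rule at 101 members. Positions are those of the deposited table, in the mm9 build. No gene was assigned to a region, and sequences were not used here.

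How the members behaved when a factor was expressed on its own did not enter their choice, although the inputs did, so these enrichments too are given without a test. Tbx5 alone reached the threshold at 347 of the 631 members (55.0%, against 20.5% of all regions) and Mef2c alone at 234 (37.1%, against 19.1%). Gata4 alone did so at 10 (1.58%, against 21.3%). The last count moved with the reference: it was 59 against the input of the Gata4 culture alone (6 of them among the 10), 31 with TMM-scaled totals and 16 against the 3 single-factor inputs. With TMM-scaled totals Mef2c alone reached the threshold at 410 members and Tbx5 alone at 458, so the classes below depend on the scaling. The shares of all regions under these other inputs and scalings were not computed. Whether the members rose more than other regions was therefore not tested. Single libraries gave 315 to 379 members for Tbx5 alone, 236 to 242 for Mef2c alone, and 13, 14, 17 and, in number 4, 80 for Gata4 alone. The 2 factors divided the members into 4 classes. There were 152 members bound by Mef2c alone and by Tbx5 alone, each in its own culture (24.1%, against 1.54% of all regions), 195 bound by Tbx5 alone and not Mef2c alone (30.9%, against 18.9%), 82 bound by Mef2c alone and not Tbx5 alone (13.0%, against 17.6%), and 202 bound by neither (32.0%, against 62%).

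**Figure D2:**
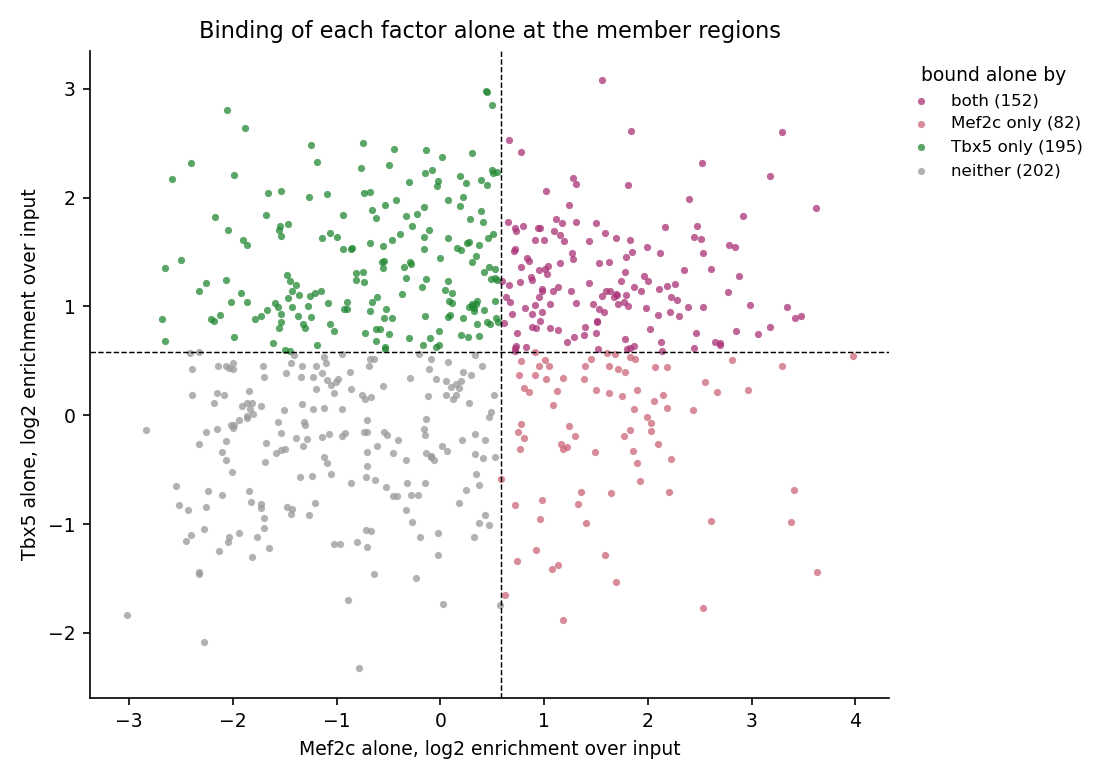
Log2 enrichment over input of Mef2c alone (horizontal) and Tbx5 alone (vertical) at the 631 members, 1 point per region, with dashed lines at the threshold of 0.585 and colours for the 4 classes. The points lie on both sides of each line, with 152 above both lines and 202 below both.

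The share bound by Gata4 alone was also lower than in the other combinations. Of the 598 regions bound by all 3 factors together, 32.6% were bound by Mef2c alone, 47.8% by Tbx5 alone and 29.9% by Gata4 alone, so these regions lay closer to the members in Mef2c and Tbx5 than in Gata4. Of the 556 regions of Gata4 and Mef2c without Tbx5, 48.2% were bound by Gata4 alone and 5.22% by Tbx5 alone. Of the 1703 regions of Gata4 and Tbx5 without Mef2c, 38.5% were bound by Gata4 alone and 0.294% by Mef2c alone. With this input, each set of a pair thus had its lowest share for the factor that it lacked. Sets and shares used the same inputs, and these shares are descriptions.

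**Figure D3:**
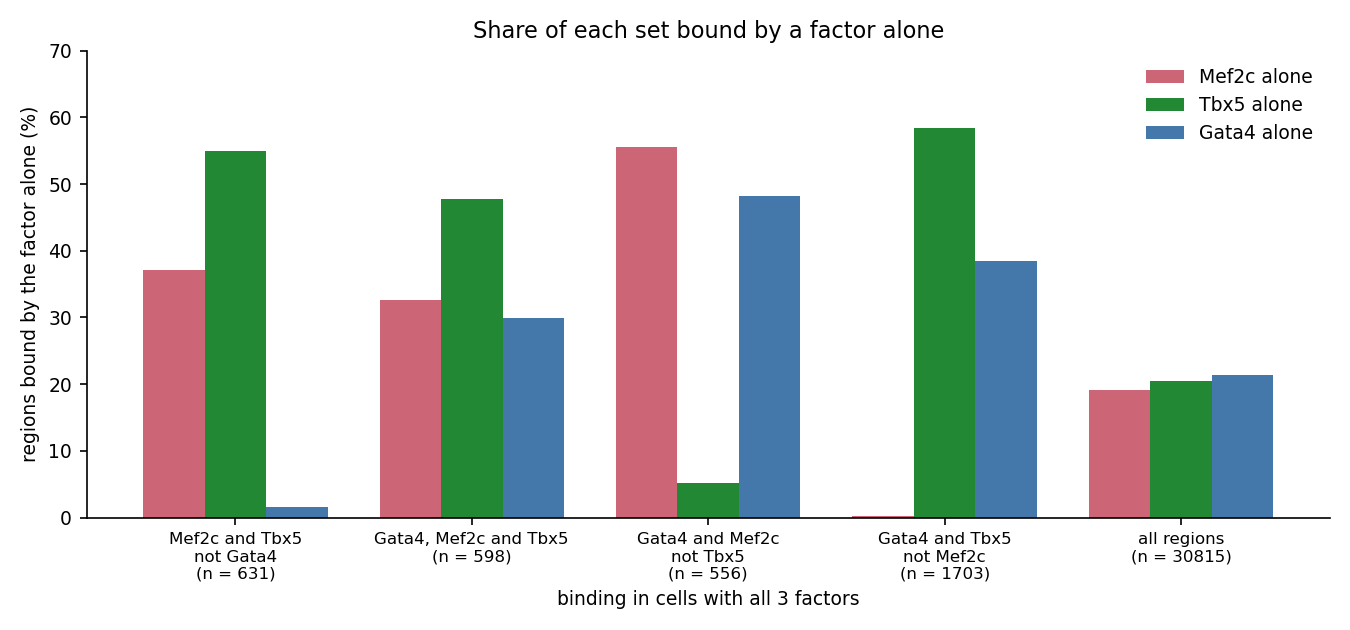
Percent of regions at or above the threshold for Mef2c, Tbx5 and Gata4 alone (bars, left to right), in the 631 members, in the 3 other combinations of at least 2 factors bound together, and in all 30815 regions. Gata4 alone reaches 1.58% in the members and 29.9% where all 3 factors were bound together.

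The 4 classes differed in how the factors stood in the cells with all 3 factors. Members bound by Mef2c alone only had the highest Mef2c enrichment together (median 1.94, against 1.60 alone) and a Tbx5 enrichment just over the threshold (0.79, against -0.04 alone). Members bound by Tbx5 alone only had the opposite balance, with 1.19 for Tbx5 together (1.26 alone) and 0.91 for Mef2c together (-0.53 alone). Where each factor bound alone, the medians were 1.48 together and 1.53 alone for Mef2c, and 0.91 together and 1.17 alone for Tbx5. At the 202 members that neither bound alone, Mef2c had a median of 1.14 together and -1.05 alone, and Tbx5 0.85 together and -0.20 alone. Values together had to reach the threshold to be counted and values alone did not, so a higher value together is in part what the rule asks for. The classes were cut on the Mef2c and Tbx5 values alone, so their order in those values follows from the definition. The members with all 13 samples on the side of the rule came from every class: 15 were Mef2c only, 27 Tbx5 only, 32 both and 27 neither.

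**Figure D4:**
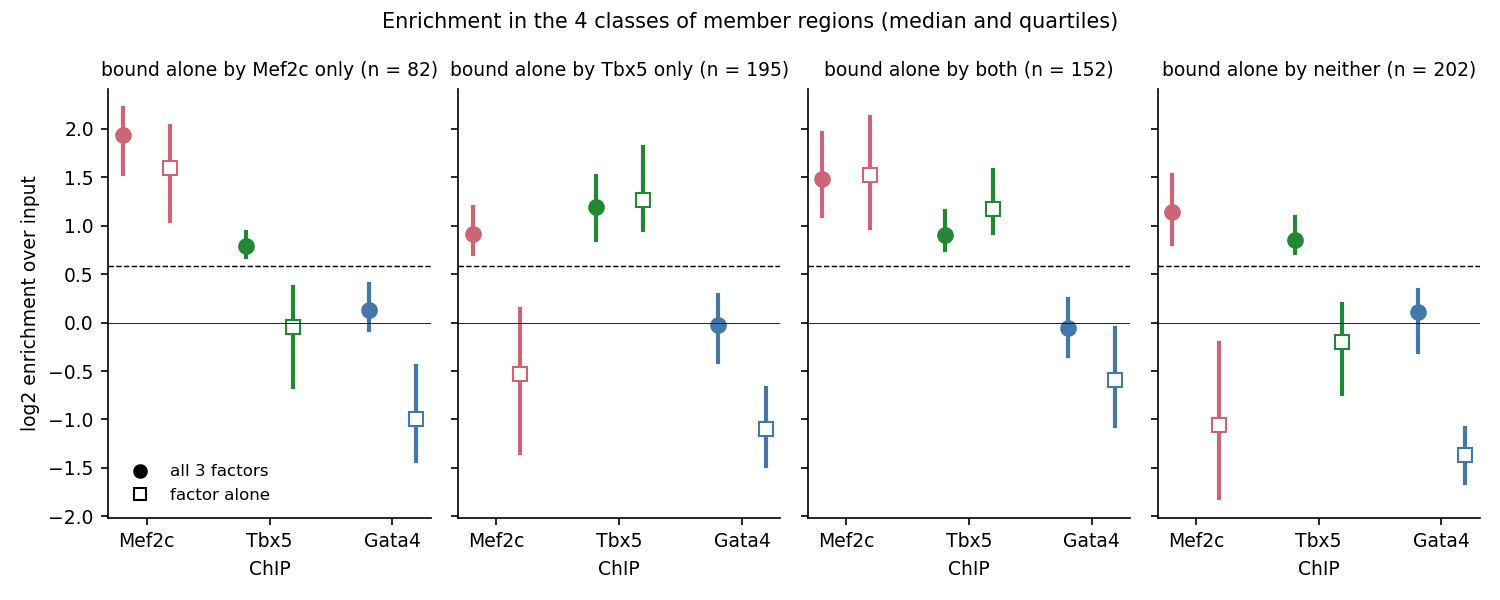
Median (symbol) and quartiles (line) of the log2 enrichment of Mef2c, Tbx5 and Gata4 in the 4 classes of members, with all 3 factors (filled circle) left of the factor alone (open square), and the threshold of 0.585 dashed. In the class bound by neither factor alone, Mef2c stands at 1.14 together and -1.05 alone.

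The counts were also fitted with TMM scaling, which sets the bulk of regions level between libraries, and the values are given with no test. The log2 ratio of Mef2c together over Mef2c alone had a median of 1.00 over the 629 members in the fit, against 0.15 over all 19391 regions. It was 2.55 in the class bound by neither alone, 1.41 in the Tbx5 only class, -0.09 in the Mef2c only class and -0.38 where both bound alone. For Tbx5 together over Tbx5 alone, the median was 0.29 over 630 members, against 0.01 over 16395 regions, and it was 1.32 in the neither class, 0.90 in the Mef2c only class, -0.24 in the Tbx5 only class and -0.38 where both bound alone. The libraries of the factors alone that defined the classes also enter these ratios, so the differences between classes follow in part from that definition. Reads on the 5 Y chromosome regions differed between libraries, also within a setting. They made up 37.5 to 43.1 CPM of inputs 1, 3 and 6 with all 3 factors and 0 to 10.3 CPM of inputs 2, 4 and 5, beside 30.8 to 71.9 CPM of the single-factor inputs. Gata4 together had 138 to 209 CPM in libraries 1, 3 and 6 and 1.06 to 25.6 CPM in libraries 2, 4 and 5. The Mef2c and Tbx5 libraries together are numbered 2 to 5 here, and the part of this difference in their values was not tested. With libraries 2, 4 and 5 of the 3-factor ChIP groups only, 703 regions met the rule, of which 565 were among the 631.

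The member with the highest value of its weaker factor was chr4:148913674-148913919 (246 bp), which each factor also bound alone. In the cells with all 3 factors it had 180.1, 196, 159 and 132 CPM for Mef2c and 63.8, 99.6, 115 and 70.5 CPM for Tbx5. It had 28.5, 13.2, 5.31, 31.2 and 13.8 CPM for Gata4 together, against 15.0, 12.3 and 12.1 CPM in the inputs. All Mef2c and Tbx5 samples lay above all inputs, and Gata4 overlapped them. The region was picked by these values, so this is a description of the choice. Alone, it had 198, 176 and 203 CPM for Mef2c, 86.5, 146 and 129 CPM for Tbx5 and 10.3, 13.5, 19.8 and 18.0 CPM for Gata4. A second region of this class, chr1:174137391-174137678 (288 bp), averaged 127 ± 18.9 CPM for Mef2c (n = 4), 78.0 ± 18.7 CPM for Tbx5 (n = 4) and 13.2 ± 2.89 CPM for Gata4 (n = 5) together, and 96.4 ± 9.59, 71.1 ± 10.9 (n = 3 each) and 4.58 ± 3.24 CPM (n = 4) alone.

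At chr11:58797502-58797892 (391 bp), in the Tbx5 only class, Mef2c had 162, 274, 226 and 157 CPM together, against 6.53, 5.16 and 9.56 CPM alone. Tbx5 had 193, 155, 217 and 122 CPM together, against 148, 170.3 and 144 CPM alone. The Mef2c groups stood far apart, and the Tbx5 groups overlapped. The region was picked for high values together and its class asks for low Mef2c alone, so the Mef2c gap follows in part from the choice. Gata4 together had 36.1 to 68.2 CPM there, with a log2 enrichment of 0.43. The next of this class, chr1:193803129-193803434 (306 bp), averaged 113 ± 12.7 CPM for Mef2c together (n = 4), against 4.95 ± 4.02 CPM alone (n = 3), and 152 ± 10.1 CPM for Tbx5 together (n = 4), against 109 ± 5.21 CPM alone (n = 3). Its Gata4 enrichment together, 0.56, was close under the threshold.

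At chr17:29531218-29531623 (406 bp), the strongest of the Mef2c only class, Mef2c had 180.1, 215, 216 and 179 CPM together, against 78.4, 63.0 and 66.9 CPM alone. Tbx5 had 128, 113, 144 and 99.2 CPM together, against 61.8, 26.9 and 65.9 CPM alone, which placed its enrichment alone at 0.58, a little under the threshold. Neither pair of groups overlapped, but the region was picked for its high values together. Among the 202 members of the neither class, chr4:140917844-140918127 (284 bp) was the strongest. There Mef2c had 67.9, 76.4, 93.6 and 91.7 CPM together, against 5.44, 10.3 and 3.19 CPM alone, and Tbx5 had 141, 69.9, 131 and 94.3 CPM together, against 41.2, 17.9 and 14.1 CPM alone. Samples of the 2 settings did not overlap for either factor. The region was picked for high values together in a class cut on low values alone, so this gap follows in part from the choice. At chr3:100552034-100552292 (259 bp), of the same class, Mef2c averaged 182 ± 34.2 CPM together (n = 4), against 8.86 ± 1.80 CPM alone (n = 3), and Tbx5 103 ± 17.9 CPM together (n = 4), against 35.9 ± 24.5 CPM alone (n = 3).

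**Figure D5:**
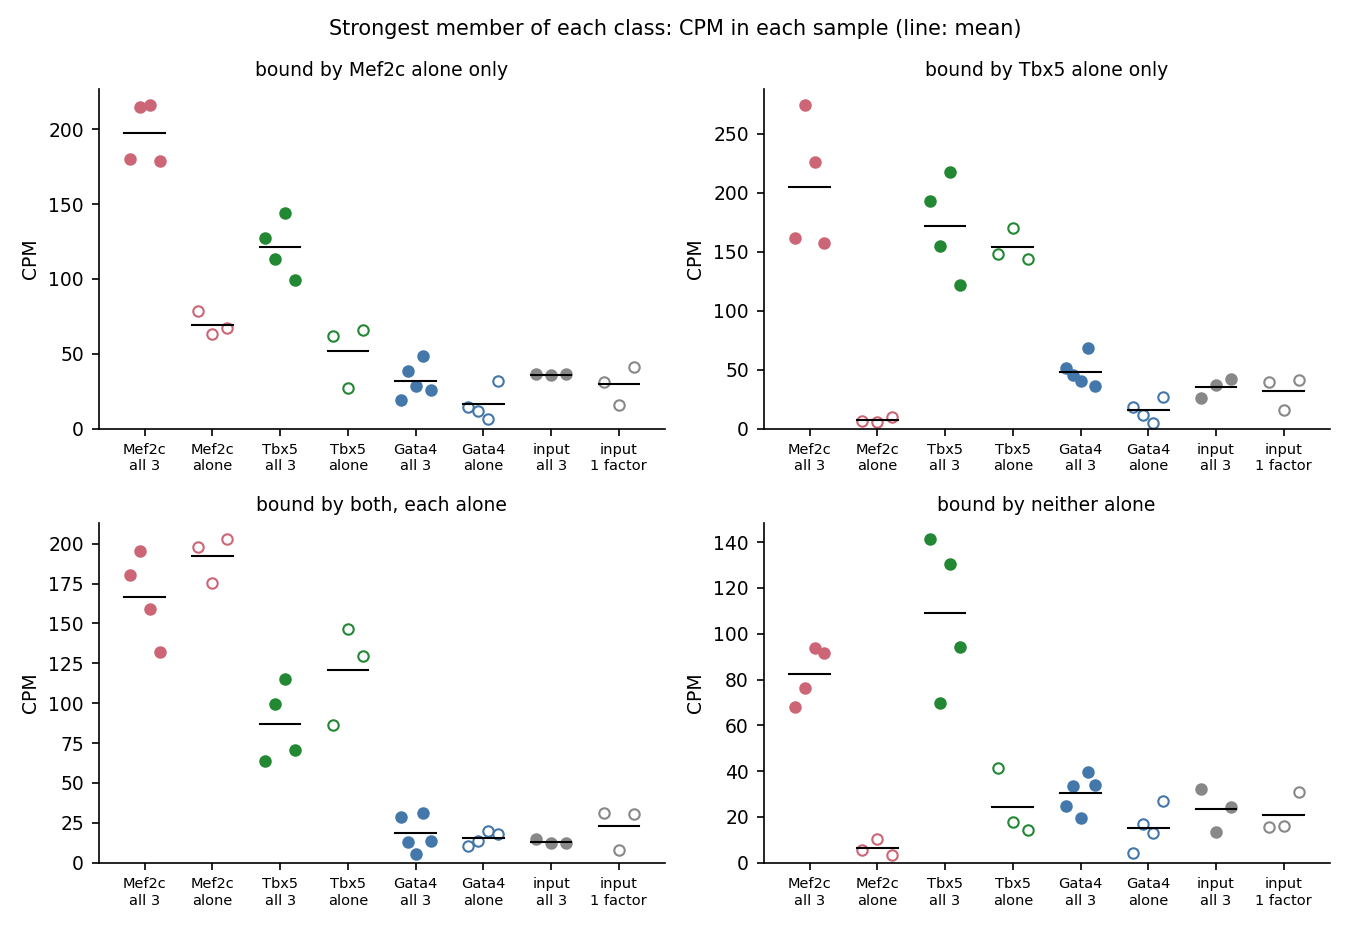
CPM in each sample (points) and the mean (line) at the strongest member of each class, by the enrichment of its weaker factor in cells with all 3 factors; filled points are cells with all 3 factors and open points cells with 1 factor. Mef2c alone is at 9.56 CPM or less in the Tbx5 only region and at 176 CPM or more in the region that each factor bound alone.

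The first tested comparison set Mef2c alone against Tbx5 alone, in libraries that took no part in choosing the members. Of the 564 members with enough counts, 227 were higher for Mef2c and 207 lower (edgeR's quasi-likelihood test, Benjamini-Hochberg adjusted p under 0.05 over all 18653 regions tested). Over all regions tested, 45.4% were called higher and 45.5% lower, or 90.9% in all, so the members were not called more often than other regions, and 130 of the 564 were not called. By CPM, the samples of the groups did not overlap at 173 members higher for Mef2c and 311 lower (26.8% and 42.7% of all 30815 regions). The median log2 fold change was 0.08 over the members and -0.08 over all regions tested. With library totals in place of TMM scaling, those medians were -0.60 and -0.76, and 169 members were higher and 279 lower. With library totals, 16935 of the 18653 regions were called. The share of called members that were higher was thus 52.3% with TMM scaling and 37.7% with library totals. Of the calls over all regions, 50.0% and 44.9% were higher. The median of the members stayed 0.16 above that of all regions under each scaling. Fitted fold changes of Mef2c over Tbx5 accordingly lie above the ratio of the CPM values given here. The difference of 0.16 between members and all regions did move with other choices. It was 0.53 to 0.60 with 1 Mef2c alone library left out and 0.42 in 1 fit of all 3 single-factor groups. The share of called members that were higher was 57.5% in that fit (52.4% over all regions). It was 56.2% with DESeq2 (52.6%) and 59.4% with no filter on low counts (54.3%).

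The members that differed most had 1 strong factor alone, and the other passed the threshold in the cells with all 3. At chr14:100007157-100007464 (308 bp), Mef2c alone had 456, 408 and 431 CPM, against 6.18, 5.97 and 11.8 CPM for Tbx5 alone. The groups did not overlap, and the log2 fold change was 6.38 ± 0.24 (SE; edgeR's quasi-likelihood test, adjusted p = 3.72e-25). With all 3 factors, Mef2c had 282, 322, 247 and 185 CPM there and Tbx5 48.3, 44.5, 66.9 and 43.3 CPM, a log2 enrichment of 0.64 for Tbx5, close above the threshold. The regions chr14:25066494-25066711 (5.59 ± 0.25) and chr15:27554910-27555280 (5.36 ± 0.22) followed, with adjusted p of 6.87e-23 and 5.19e-24 in the same edgeR test.

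In the other direction, chr19:58574126-58574368 (243 bp) had 1.09, 1.03 and 2.12 CPM for Mef2c alone, against 206, 155 and 174 CPM for Tbx5 alone, a log2 fold change of -6.16 ± 0.42 (edgeR adjusted p = 3.17e-17). With all 3 factors its Mef2c level was 13.1, 25.2, 84.3 and 23.1 CPM and its Tbx5 level 27.6, 41.3, 107 and 27.2 CPM, so library number 4 carried most of both. At chr7:106862462-106862665 (204 bp), Mef2c alone had 1.09, 1.03 and 2.12 CPM, against 167, 146 and 113 CPM for Tbx5 alone, a log2 fold change of -5.82 ± 0.44 (edgeR adjusted p = 8.69e-16). There the samples with all 3 factors were more even, at 31.3, 19.3, 36.6 and 33.6 CPM for Mef2c and 143, 117, 165 and 108 CPM for Tbx5. At chr1:187551631-187551959 the fold change was -5.51 ± 0.39 (edgeR adjusted p = 1.48e-16).

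Differences were smaller at the strongest members that each factor bound alone. Larger ones occurred in the same class, with log2 fold changes of 2.43 ± 0.15 at chr12:21478323-21478681 and 2.75 ± 0.21 at chr1:88275583-88275810. At chr4:148913674-148913919 Mef2c alone exceeded Tbx5 alone by 1.38 ± 0.18 on the log2 scale (edgeR adjusted p = 2.61e-09), or 0.70 with library totals. At chr1:174137391-174137678 it did so by 1.14 ± 0.23 (edgeR adjusted p = 2.18e-05), and the call was lost with library totals (0.45, adjusted p = 0.0659). At chr9:70695500-70695781 (282 bp), with 73.0, 106 and 79.7 CPM for Mef2c alone and 181, 161 and 151 CPM for Tbx5 alone, the fitted difference of -0.25 ± 0.20 did not pass the test (edgeR adjusted p = 0.235). Its samples did not overlap by CPM, and with library totals the difference was -0.93 and passed (edgeR adjusted p = 2.66e-05).

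Gata4 alone was lower than Mef2c alone at 382 of the 441 members tested and higher at 7, where all regions tested divided into 37.9% lower and 45.2% higher, or 83.1% called in all (edgeR's quasi-likelihood test, adjusted p under 0.05 over 21509 regions). By CPM, the samples did not overlap at 271 members lower and 52 higher, against 19.7% and 47.3% of all 30815 regions. The median log2 fold change was -2.39 over the members and 0.63 over all regions tested. With library totals the medians were -1.57 and 1.46, and of the calls over all regions 64.2% were higher, against 54.4% with TMM scaling. Without the Gata4 alone library number 4, 412 members were lower and 6 higher of 453 tested (41.2% and 45.7% of all regions tested, or 86.9% called in all). Without Mef2c alone number 1, 4 members were higher. Members entered a test only with enough counts in 1 of the groups, which favours those that Mef2c bound, so the counts speak for the tested members and not for all 631. Fitted with no filter on low counts, all 631 members were tested, and 426 were lower and 5 higher. In that fit 18006 of all 30815 regions were called, and 49.6% of these calls were higher.

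At chr12:21478323-21478681 (359 bp), Gata4 alone had 2.07, 8.46, 6.60 and 35.9 CPM, against 439.9, 391 and 432 CPM for Mef2c alone. The log2 fold change was -6.17 ± 0.45 (edgeR adjusted p = 2.03e-09). With all 3 factors, Gata4 had 28.5, 16.8, 19.5, 11.4 and 24.4 CPM there, against 25.8, 35.5 and 24.2 CPM in the inputs, and these groups overlapped. The fold changes at chr1:88275583-88275810 and chr14:100007157-100007464 were -5.57 ± 0.57 and -5.51 ± 0.38 (edgeR adjusted p = 8.27e-08 and 1.63e-09). In the opposite direction, chr8:97950476-97951009 (534 bp) had 70.4, 69.4, 59.4 and 103 CPM for Gata4 alone, against 13.1, 11.4 and 13.8 CPM for Mef2c alone, with a log2 fold change of 1.70 ± 0.43 (edgeR adjusted p = 0.0013). Its inputs had 39.9 to 87.3 CPM, so Gata4 alone was at its input level and Mef2c alone below it. With all 3 factors this region had a Gata4 enrichment of 0.58, just under the threshold.

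Gata4 alone was lower than Tbx5 alone at 391 of the 501 members tested, where 32.9% of all regions tested were lower and 38.4% higher, or 71.3% called in all (edgeR's quasi-likelihood test, adjusted p under 0.05 over 18790 regions). By CPM, the samples did not overlap at 330 members lower and 1 higher, against 18.6% and 26.1% of all 30815 regions. By the test it was higher at 0 members, at 0 with an unadjusted p under 0.05 and at 0 with DESeq2. The median log2 fold change was -1.88 over the members and 0.26 over all regions tested. Without the library number 4 of Gata4 alone, 424 of 456 members were lower and 0 higher (40.1% and 43.1% of all regions tested, or 83.2% called in all), with 1 higher at an unadjusted p under 0.05. Without number 1, 2 or 3 of Gata4 alone, 3, 2 or 1 members were higher. Members again entered only with enough counts in 1 of the groups, which here favours those that Tbx5 bound. The counts of 391 of 501 and 424 of 456 therefore speak for the tested members only. With no filter on low counts, all 631 members were tested, and 427 were lower and 0 higher by the same edgeR test. In that fit 13245 of all 30815 regions were called, and 48.5% of these calls were higher. The comparison shares the Gata4 alone libraries with the one before it and the Tbx5 alone libraries with the first.

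At chr2:113426461-113426692 (232 bp), Gata4 alone had 8.28, 6.77, 11.0 and 4.49 CPM, against 163, 272 and 134 CPM for Tbx5 alone. Here library number 4 was the lowest of its group, the groups did not overlap, and the log2 fold change was -4.62 ± 0.44 (edgeR adjusted p = 3.75e-06). The fold changes at chr1:135996388-135996715 and chr7:106862462-106862665 were -4.50 ± 0.52 and -4.43 ± 0.60 (edgeR adjusted p = 8.12e-06 and 2.29e-05).

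Gata4 together lay under the threshold at every member by the rule, yet not at 1 level. Its log2 enrichment ran from -1.20 up to 0.58, with a median of 0.02 and quartiles of -0.32 and 0.31, and was above 0 at 334 members. Alone, the median was -1.12, and 54 members were above 0. The value together exceeded the value alone at 574 of the 631 members (91.0%), against 56.5% of all regions and 89.1% of the regions bound by all 3 factors together. In the fit with TMM scaling, the log2 ratio of Gata4 together over Gata4 alone had a median of 0.96 over 532 members, or 1.41 over 544 without Gata4 alone number 4, against 0.00 and 0.03 over all regions. It was 1.25 in the class bound by neither factor alone, 0.97 in the Mef2c only class, 0.91 in the Tbx5 only class and 0.31 where both bound alone. Without Gata4 alone number 4 these medians were 1.78, 1.38, 1.40 and 0.54. Regions just over the threshold are not members, so the rule caps the Gata4 values together. It also asks for high Mef2c and Tbx5 in the same cells, and the part of that choice in this difference was not tested. Within the libraries richer in Y chromosome reads, the median level over the members was 28.3 to 30.3 CPM for Gata4 together (numbers 1, 3 and 6), against 10.2 and 15.4 CPM for Gata4 alone (numbers 2 and 3, with 284 and 259.5 CPM of Y reads). Together numbers 2, 4 and 5, with 3.59, 25.6 and 1.06 CPM of Y reads, had 31.1, 36.9 and 31.9 CPM. Gata4 alone number 4, with 18.0 CPM of Y reads, had 35.9 CPM. Gata4 alone number 1, with 45.5 CPM of Y reads, had 12.4 CPM. The part of the Y read difference in these values was not tested.

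The members lowest in Gata4 together were chr3:99758071-99758271 (log2 enrichment -1.20), chr2:120560701-120561065 (-1.20) and chr9:54542441-54542704 (-1.15). At the first, Gata4 had 6.57, 10.8, 7.08, 25.6 and 8.50 CPM together, against 27.9, 25.9 and 18.1 CPM in the inputs, while Mef2c had 75.7, 109.9, 117 and 65.6 CPM. Among the members with Gata4 alone over the threshold, chr4:129471195-129471629 was the highest, with 64.2, 45.7, 59.4 and 18.0 CPM alone and a log2 enrichment of 0.96, against 28.5, 31.1, 24.8, 39.8 and 60.6 CPM and 0.42 together. Its groups overlapped. The next were chr19:10764944-10765146 (0.87 alone) and chr13:23853052-23853320 (0.82 alone), both also bound by Mef2c alone and by Tbx5 alone.

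The members were wider than most regions, although the rule used no width. They spanned 201 to 780 bp with a median of 316 bp, against 234 bp over all regions and 389.5 bp for the regions bound by all 3 factors together. The other sets of a pair were much alike, with medians of 331 bp for Gata4 and Mef2c and 317 bp for Gata4 and Tbx5. Only 79 members (12.5%) were 210 bp or shorter, against 40.4% of all regions. At the long end, 65 members (10.3%) reached 500 bp, against 5.03% of all regions and 24.6% of those bound by all 3 factors. By class, median widths were 300.0 bp for Mef2c only, 342 bp for Tbx5 only, 312.5 bp for both and 299.5 bp for neither. Wider regions collect more counts, and the part of width in these numbers was not tested.

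Chromosome 7 carried 53 members (8.40%), against 4.51% of all regions, and 3.81% of its regions were members, compared with 2.05% overall. Chromosome 16 carried 12 (1.90%, against 3.34%). The members lay scattered, with a median of 568 kb to the nearest other member. Within 5 kb of each other there were 18 members, which formed 9 pairs. They did lie near other counted regions, at a median gap of 7.94 kb, against 12.8 kb over all regions, and 350 members (55.5%) had a region of any kind within 10 kb, against 43.9% of all regions.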

How the data were processed

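ChIP and input DNA was sequenced from 33 libraries. The authors deposited 1 table of raw read counts over 30815 regions. The submitters' processing notes name FastQC, Bowtie2 2.2.4 and featureCounts and the mm9 build. As for region selection and duplicates, their handling is not given in the sources used here. A selection on these same libraries would affect each share of bound regions.

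The members, classes and comparisons were chosen with earlier results of these data known. The rule was applied to summed counts (pseudocount 5 CPM). Libraries of a group that a chi-square test did not separate (regions with a summed count of at least 10) were summed and counted as 1 sample. Tests used edgeR 4.0.16 in R 4.3.3 (filterByExpr with minimum count 10 and minimum total 15, TMM, glmQLFit with robust estimation, glmQLFTest, two-sided), fitted on all regions, with Benjamini-Hochberg adjustment over all regions tested. The SE is the log2 fold change divided by the square root of F. DESeq2 1.42.0 was an alternative, with other scalings, filters and left-out libraries. Named regions were the strongest by the weaker factor (5 in all, 3 per class), up to 3 called members per comparison and direction with groups that do not overlap and a mean level above the median, the 2 nearest each threshold on either side, and the 3 with the lowest Gata4 together and the 3 with the highest Gata4 alone, of which the text prints part. The planned motif and gene list counts were not run because no mm9 genome or annotation was used here. Same-numbered libraries of the factors alone did not deviate together, so numbers were not used as pairs. Intervals cover counting error only, since each was computed from the reads of 1 library. The PCR reads carry no molecular identifiers, and error from copied reads is not covered.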

Additional observations from a re-analysis of the deposited data

Results flagged for a closer look

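In groups of 4 or 5 samples, 13 of 124 sets of values over 29 regions and the member totals held a sample that stood far from the others by Dixon's criterion. Chance gives about 1 in 20 for independent sets. These sets share libraries, and their regions were picked from the same data, so the 13 cannot be set against that rate. Of the 13, 8 concerned Gata4 alone number 4. The members took 2.37% of its counts (95% Wilson interval 2.30 to 2.43%), against 0.950 to 1.19% in the other Gata4 alone libraries. Its CPM was the highest of its group at chr1:193803129-193803434 (22.4), chr16:30737160-30737458 (31.4), chr13:102904283-102904723 (53.9), chr3:100552034-100552292 (49.4), chr7:106862462-106862665 (31.4), chr1:135996388-135996715 (35.9) and chr2:120560701-120561065 (67.3), where the other libraries of the group had 11.0 CPM or less.

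The libraries numbered 4 of cells with all 3 factors gave the other 5. The members took 2.86% of the counts of Gata4 number 4 (interval 2.80 to 2.91%), against 2.12 to 2.32% in the other samples, and 6.18% of those of Tbx5 number 4 (6.13 to 6.23%), against 4.51 to 4.73%. Mef2c number 4 had 84.3 CPM at chr19:58574126-58574368, against 13.1 to 25.2 CPM in the others, and 93.6 CPM at chr1:193803129-193803434, against 117 to 120.0 CPM. Gata4 number 4 had 25.6 CPM at chr3:99758071-99758271, against 6.57 to 10.8 CPM. Without number 4 of every 3-factor ChIP group, an alternative chosen after seeing the data, 539 regions met the rule, of which 463 were among the 631.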

How the results depend on the processing

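Membership depended on the threshold and the scaling. With a 2-fold threshold 235 regions met the rule, of which 148 were among the 631, and with TMM-scaled totals 1574, of which 493 were. With a 1.25-fold threshold, a pseudocount of 1 or 10 CPM, the inputs of the 3-factor cells only or agreeing libraries averaged, the number was 918, 703, 558, 668 and 544 in that order. Leaving out 1 library at a time it ran from 543 to 704, and leaving out 1 number from all 3 groups, an alternative added after seeing the data, from 539 to 695. Of the 631 members, Gata4 alone bound 0 with a 2-fold threshold, 59 against the input of its own culture, 16 against the 3 single-factor inputs and 31 with TMM-scaled totals, and Mef2c alone bound 410 with TMM-scaled totals. The shares of all regions under these settings were not computed. Members higher for Gata4 alone than Mef2c alone numbered 4 with DESeq2 and 19 with library totals, and 4 to 9 with 1 library left out (4 without Mef2c alone number 1). Members higher for Gata4 alone than Tbx5 alone numbered 1 with library totals and 0 to 3 with 1 library left out (3, 2 and 1 without Gata4 alone number 1, 2 and 3). The other alternatives kept each count within 1.5 times. Of 60 calls at named regions, 0 reversed under any alternative, and 31 of 694 alternative values lost the call. With the replicate number as a block, which the same-numbered samples do not bear out (r of their deviations from -0.14 to 0.13), the members higher and lower were 225 and 201 for Mef2c over Tbx5, 7 and 399 for Gata4 over Mef2c, and 1 and 449 for Gata4 over Tbx5. The shallowest Mef2c library with all 3 factors (383071 counts) had 456 members at or over the threshold, against 536 to 594 in the others. The part of depth in this was not tested.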
